A study of Mus musculus with 12 samples.

Results

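Neuronal and synaptic adhesion molecules were examined on the arrays as 1 gene group. Its members are the contactins, contactin-associated proteins, neurexins, neuroligins, latrophilins, LRRTM, FLRT, LRRC4 and SLITRK proteins and the IgLON proteins Lsamp, Ntm, Opcml and Negr1, taken by the gene symbol that the platform annotation gives each probe. This gave 96 of the 45281 probes on the array, which name 47 of 19057 genes. Probes were called well measured with detection p-values below 0.01 in 4 or more of the 12 arrays, here termed kept probes, which left 53 of 17188 kept probes and 32 of 10031 genes. The rule itself uses symbols and detection only, but the group was chosen with earlier results of these data known. Its shares beside those of all genes were therefore not tested. The symbol pattern for LRRC4 also takes in 7 numbered leucine-rich repeat genes, from Lrrc40 to Lrrc49, which are not known as synaptic adhesion molecules. Of these, 4 had a kept probe (Lrrc40, Lrrc41, Lrrc45 and Lrrc49), and they are counted with the others but described apart. The remaining 15 genes had no kept probe, namely Adgrl2, Cntn3, Cntn4, Cntnap3, Cntnap5a, Cntnap5c, Lrrc4, Lrrc4c, Lrrc42, Lrrc43, Lrrc46, Lrrtm4, Opcml, Slitrk2 and Slitrk6. Nlgn3 and Lrrc4b were not analysed here.

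All mice were of the BACHD line, aged 5 months, in which a transgene under huntingtin's own regulatory sequence makes the full-length mutant human protein of Huntington's disease. They received a wig-1 antisense oligonucleotide (ASO), a negative control ASO or PBS by injection into the striatum, with 4 arrays a group. The wig-1 ASO is directed against Zmat3, the mouse wig-1 gene, which encodes a zinc finger protein that binds RNA and is induced by p53. Mice without the huntingtin transgene were not analysed here, so each comparison is between treatments of the same model. The labels call the tissue brain and the study's methods name the striatum. RNA came from whole tissue, so fewer cells of a type and less RNA per cell cannot be told apart. Each array is taken as 1 animal.

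Adhesion molecules of this kind bridge the synaptic cleft or hold axons to their neighbours. Neurexins sit on the presynaptic membrane and bind neuroligins and LRRTM proteins on the postsynaptic side. Latrophilins are adhesion receptors coupled to G proteins that bind FLRT proteins and teneurins, and SLITRK proteins bind receptor tyrosine phosphatases of the axon. Contactins and contactin-associated proteins organise the membrane beside nodes of Ranvier, and IgLON proteins are small immunoglobulin molecules anchored to the neuronal surface by a lipid. In the striatum most neurons are medium spiny neurons, which receive excitatory input from cortex and thalamus and inhibit each other.

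The promoter sequences shown here belong to Cntnap2, Adgrl3 and Ntm, the 3 members that were lower after the wig-1 ASO in both comparisons described below. Cntnap2 is shown at both of its annotated starts, because its probes changed by different amounts. Each sequence is the 250 bases before a transcription start in the RefSeq annotation of GRCm38.p6, 5′ to 3′ on the strand of the gene. Capitals mark the letters of 3 motifs searched on both strands, GGGCGG known as the GC box, TATAAA known as the TATA box, and the CCAAT box, none of which overlapped another in these windows. Adgrl3 and Ntm have further annotated starts, of which only the first in the table is printed.
Cntnap2 first start, chr6:45059811-45060060, plus strand: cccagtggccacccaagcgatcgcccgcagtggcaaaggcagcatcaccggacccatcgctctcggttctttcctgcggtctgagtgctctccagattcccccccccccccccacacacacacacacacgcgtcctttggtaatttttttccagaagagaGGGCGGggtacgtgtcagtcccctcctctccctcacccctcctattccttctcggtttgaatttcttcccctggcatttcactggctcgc
Cntnap2 second start, chr6:47244146-47244395, plus strand: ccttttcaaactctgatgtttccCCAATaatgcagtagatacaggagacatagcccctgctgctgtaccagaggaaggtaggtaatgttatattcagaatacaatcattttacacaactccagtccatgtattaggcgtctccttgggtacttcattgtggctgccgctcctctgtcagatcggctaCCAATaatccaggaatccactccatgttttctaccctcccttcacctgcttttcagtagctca
Adgrl3 first start, chr5:81020321-81020570, plus strand: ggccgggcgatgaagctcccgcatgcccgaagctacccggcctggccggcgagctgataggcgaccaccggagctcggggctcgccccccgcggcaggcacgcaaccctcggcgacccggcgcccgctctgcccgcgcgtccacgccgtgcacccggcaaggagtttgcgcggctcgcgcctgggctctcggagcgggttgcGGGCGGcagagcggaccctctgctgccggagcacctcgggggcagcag
Ntm first start, chr9:29413453-29413702, minus strand: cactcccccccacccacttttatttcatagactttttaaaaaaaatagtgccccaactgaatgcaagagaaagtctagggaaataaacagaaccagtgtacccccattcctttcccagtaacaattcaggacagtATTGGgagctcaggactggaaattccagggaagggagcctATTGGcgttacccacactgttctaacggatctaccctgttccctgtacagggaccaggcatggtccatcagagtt

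The first Cntnap2 window and the Adgrl3 window each hold 1 GC box. The second Cntnap2 window and the Ntm window each hold 2 CCAAT boxes and no GC box, and the TATA box was in 0 of the 4 windows. Of the windows not printed, the second Adgrl3 start has 2 GC boxes, 1 TATA box and 18 CpG, the third has 1 GC box and 18 CpG, and the second Ntm start has 1 GC box and 14 CpG. Among 32851 promoter windows of the same length, 32.7% held a GC box, 12.4% a TATA box and 33.8% a CCAAT. The CpG dinucleotide, which is dense in many vertebrate promoters, occurred 13 times at the first and 3 times at the second Cntnap2 start, 36 times in the Adgrl3 window and 2 times in the Ntm window, against a median of 6 over all windows. The second Cntnap2 window and the Ntm window are thus alike in these features and differ from the other 2. Of the 32 measured genes, 26 had a promoter in the RefSeq table.

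The tissue carried striatal markers, with 15 of 18 medium spiny neuron markers measured, Drd1, Drd2 and Ppp1r1b among them. Probes detected per array numbered 15228 to 17198 after the wig-1 ASO, 15912 to 16614 after the control ASO and 16064 to 16518 after PBS, and arrays correlated at 0.947 to 0.982 over kept probes. Replicate 1 of the wig-1 ASO had the lowest number of detected probes. The target Zmat3 measured 6.89, 6.63, 6.77 and 5.95 (log2 signal) after the wig-1 ASO, 8.48, 8.47, 8.53 and 8.31 after the control ASO and 8.57, 8.60, 8.37 and 8.44 after PBS, so its level after the wig-1 ASO was 26.2% of that after PBS. Signals below are log2 values, a change is the difference of 2 group means on that scale, and SE is its standard error. Each gene is given by the brightest of its kept probes (by mean log2 signal), and adjusted p-values come from 1 limma model over the 3 groups with Benjamini-Hochberg adjustment over all 17188 kept probes, with 0.05 as the threshold.

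The adhesion genes were mostly lower after the wig-1 ASO than after PBS. Of the 32 genes, 6 fell and 0 rose: Cntnap2, Adgrl3, Nrxn3, Ntm, Slitrk4 and Lrrtm3. Over all 10031 genes, 0.977% fell and 2.83% rose in this comparison, so that falls among the members were 18.8% of genes where rises are the more frequent call in general. Without the numbered Lrrc genes the count was 6 of 28. Counted by kept probes, 12 of 53 fell, against 1.06% of all probes. Several of these were further probes of Adgrl3 and Nrxn3 on the same arrays. Some dim Adgrl3 probes among them passed the detection filter mainly through the control ASO and PBS arrays. The probe count is therefore no separate support for the gene count. Lower values were found for 30 of the 32 genes, including those that did not pass, against 51.9% of all genes. The median change of the members was −0.32, with quartiles of −0.62 and −0.10, and that of all genes was −0.01. The 4 arrays of each group did not overlap for 10 members in the lower direction (4.5% of all genes) and for 1 in the higher direction (6.55% of all genes).

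Against the control ASO, 3 of the 32 genes fell after the wig-1 ASO and 1 rose. Cntnap2, Adgrl3 and Ntm fell and Lrrtm1 rose, while 0.289% of all genes fell and 0.788% rose. By kept probes, 5 of 53 fell, against 0.308% of all probes, with several Adgrl3 probes among them and the same limits. The median change was −0.26, against −0.01 over all genes, and 28 of the 32 genes were lower, against 52.2% of all genes. Groups did not overlap for 7 members in the lower direction (4.56% of all genes) and 1 in the higher (4.74% of all genes). Both comparisons share the wig-1 ASO arrays, so the second is no independent repeat of the first.

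The control ASO itself was compared with PBS as the background of ASO treatment. None of the 32 genes passed in limma in this comparison, and SAM gave 0 as well, as for 0% of all genes at the same threshold. At an unadjusted p under 0.05 there were 2 members, both lower after the control ASO, Lrrtm1 and Lrrtm3. Of all 10031 genes, 317 were lower and 314 higher at that limit, a share close to that of the members. The median change was −0.08, against 0.01 over all genes, and 22 of the 32 genes were lower, against 48.5% of all genes. Groups did not overlap for 1 member in the lower direction, Lrrtm1 (2.52% of all genes).

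**Figure D1:**
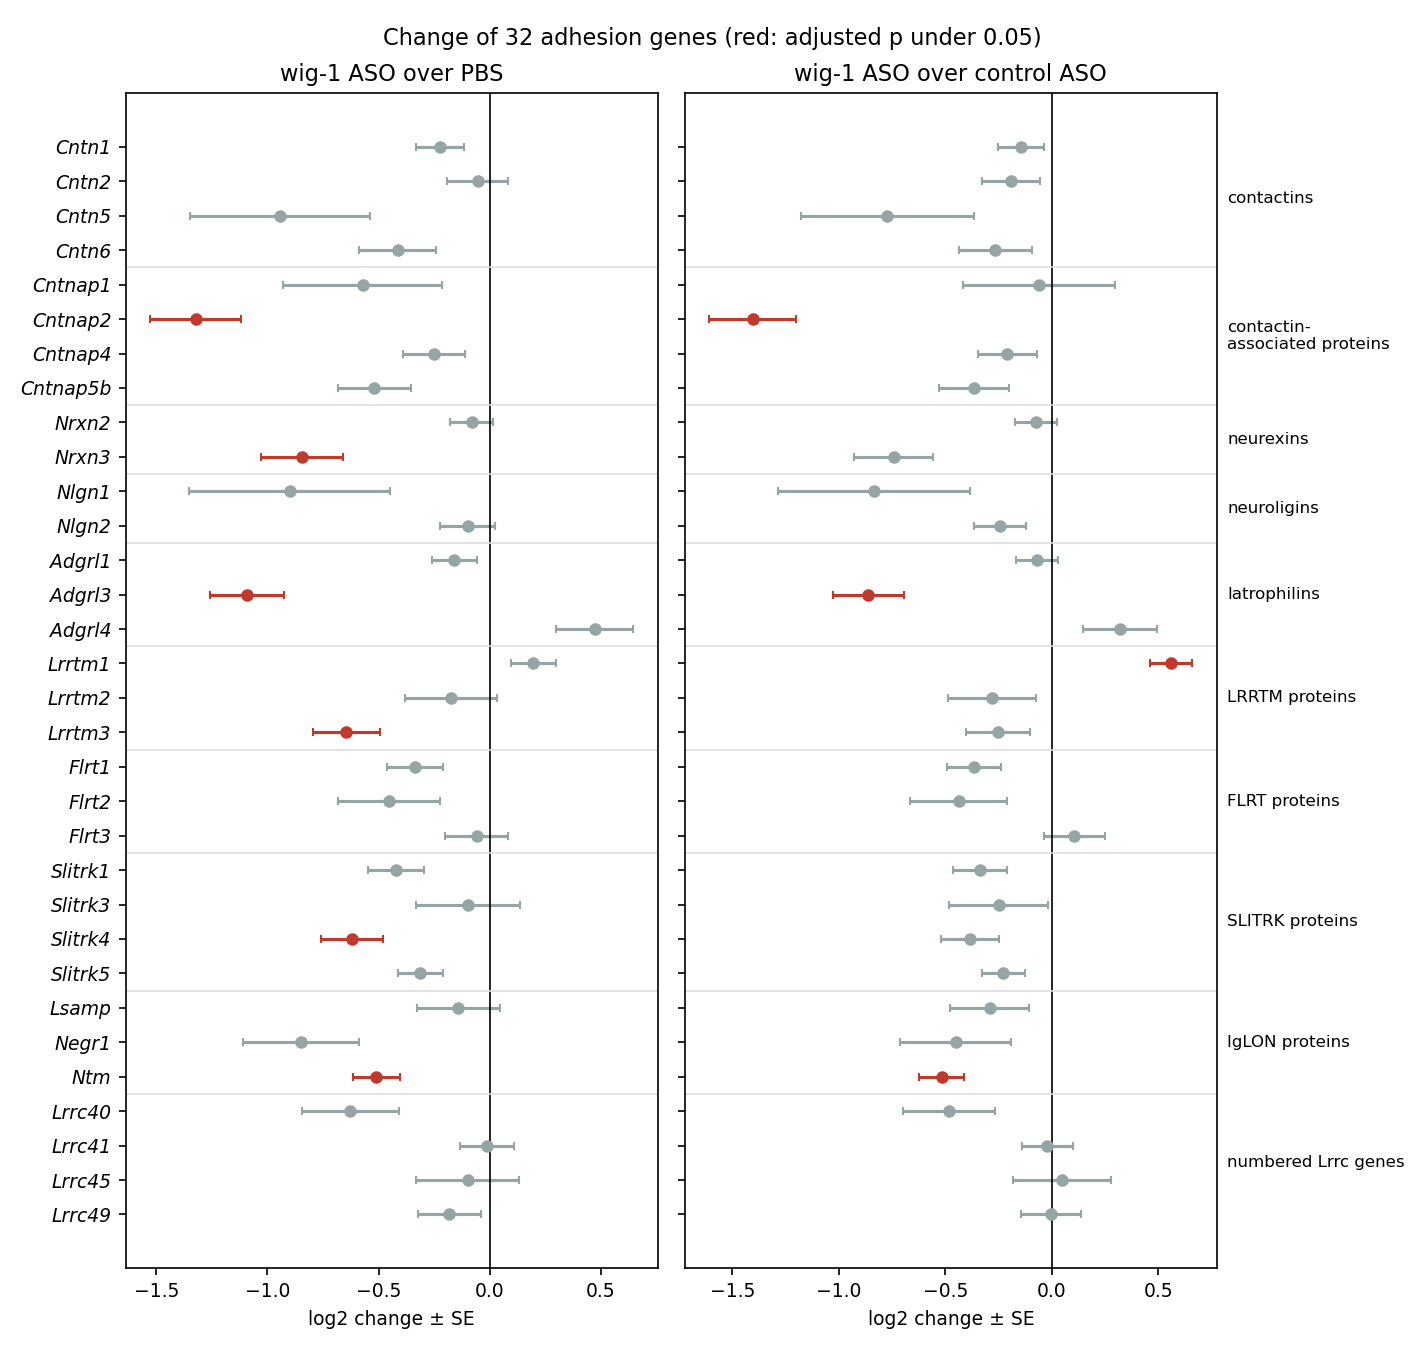
Change (log2, x axis) of each of the 32 adhesion genes at its brightest kept probe, for wig-1 ASO over PBS on the left and over control ASO on the right, with bars of 1 SE and genes grouped by family down the page; red marks an adjusted p under 0.05. Most points lie left of 0 in both panels, with Cntnap2 at −1.32 and −1.41 farthest out. Adgrl4 and Lrrtm1 lie to the right in both, and Flrt3 at 0.11 and Lrrc45 at 0.05 do so in the right panel only.

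Among the contactin-associated proteins, Cntnap2 changed most. The protein, also known as Caspr2, is a relative of the neurexins that gathers potassium channels beside the nodes of myelinated axons. Its signal was 7.22, 7.05, 7.52 and 6.34 after the wig-1 ASO, 8.59, 8.39, 8.53 and 8.23 after the control ASO and 8.39, 8.41, 8.31 and 8.31 after PBS. All 4 wig-1 ASO arrays lay below every array of the other groups. Group means were 7.03 ± 0.50, 8.44 ± 0.16 and 8.35 ± 0.05 (SD, n = 4 each) in the same order. The change was −1.32 (SE 0.20, adjusted p = 0.00896) against PBS, a level of 40.0% of that after PBS, and −1.41 (SE 0.20, adjusted p = 0.0251) against the control ASO. The exact two-sided permutation test gave p = 0.029 for each, the smallest value it can give for 4 against 4 arrays. With 1 array left out in turn the fall against PBS passed in all 12 fits, with adjusted p-values of 0.00521 to 0.0341. Against the control ASO it was lost in 4 of 12 fits, without wig-1 ASO replicate 2 or control ASO replicate 1, 2 or 4, at adjusted p-values of up to 0.0768.

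The other contactin-associated proteins were lower by less and did not pass. Cntnap1, a partner of contactin at the junctions beside the node, changed by −0.57 (adjusted p = 0.445) against PBS and was detected on 3 wig-1 ASO, 2 control ASO and 4 PBS arrays. Cntnap4, found on interneurons, changed by −0.25 (adjusted p = 0.377) and Cntnap5b by −0.52 (adjusted p = 0.12). Cntnap5b measured 4.35 to 4.73 after the wig-1 ASO and 5.00 to 5.21 after PBS, so these groups did not overlap. The median of the 4 genes was −0.55 against PBS and −0.29 against the control ASO.

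Of the contactins, none of the 4 with a kept probe passed in any comparison. Cntn1, which pairs with Cntnap1, had the highest signal of the family, at 9.56 to 9.89 after the wig-1 ASO, 9.85 to 10.04 after the control ASO and 9.86 to 10.17 after PBS. Its change was −0.22 (SE 0.11, adjusted p = 0.301) against PBS. Cntn6 had the smallest unadjusted p of the family against PBS, with a change of −0.41 (SE 0.17, adjusted p = 0.234), and its groups overlapped. Cntn5 changed by −0.94 (SE 0.40, adjusted p = 0.246), with detection on 1 wig-1 ASO, 3 control ASO and 3 PBS arrays, and Cntn2, the contactin that pairs with Cntnap2, by −0.05 (adjusted p = 0.883).

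The neurexin Nrxn3 fell against PBS. Neurexin 3 is a presynaptic receptor for many of the postsynaptic members described here. It measured 8.30, 7.84, 7.74 and 7.22 after the wig-1 ASO, 8.55, 8.32, 8.62 and 8.59 after the control ASO and 8.69, 8.72, 8.54 and 8.53 after PBS. The wig-1 ASO arrays were lower than every other array, but replicate 1 (8.30) was close to the lowest control ASO array (8.32). The change was −0.84 (SE 0.19, adjusted p = 0.0328) against PBS and −0.74 (SE 0.19, adjusted p = 0.0893) against the control ASO. The call against PBS was lost in 8 of the 12 fits with 1 array left out, at adjusted p-values of up to 0.0913. Nrxn2, which had the highest signal of the neurexins, measured 9.43 to 9.64, 9.48 to 9.74 and 9.49 to 9.77 in wig-1 ASO, control ASO and PBS striatum, and its change against PBS was −0.08 (95% interval −0.30 to 0.13, adjusted p = 0.724).

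The neuroligins, postsynaptic receptors for neurexins, did not pass. Nlgn2, which is found at inhibitory synapses, measured 8.11 to 8.53 after the wig-1 ASO, 8.52 to 8.67 after the control ASO and 8.20 to 8.68 after PBS. Its change was −0.10 (SE 0.12, adjusted p = 0.735) against PBS and −0.24 (SE 0.12, adjusted p = 0.42) against the control ASO. Nlgn1, found at excitatory synapses, had a low signal and was detected on 2 wig-1 ASO arrays and on all 4 of each other group. Its change of −0.90 against PBS had an SE of 0.45 (adjusted p = 0.327).

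The LRRTM proteins, leucine-rich repeat receptors of excitatory postsynapses that bind neurexins, gave 1 fall against PBS and 1 rise against the control ASO. Lrrtm3 measured 5.67, 5.30, 5.27 and 5.15 after the wig-1 ASO, 5.27, 5.67, 5.59 and 5.89 after the control ASO and 6.04, 5.89, 5.86 and 6.19 after PBS. Its 4 wig-1 ASO arrays lay below all PBS arrays and overlapped the control ASO arrays. It fell by 0.65 (SE 0.15, adjusted p = 0.0427) against PBS, and its change against the control ASO was −0.25 (SE 0.15, adjusted p = 0.51). The control ASO against PBS gave −0.39 (SE 0.15, adjusted p = 0.712). The call was lost in 9 of 12 fits with 1 array left out, at adjusted p-values of up to 0.125.

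Lrrtm1 was the member that rose. It measured 7.25, 7.17, 7.33 and 7.53 after the wig-1 ASO, 6.66, 6.85, 6.66 and 6.88 after the control ASO and 7.14, 7.13, 7.09 and 7.15 after PBS. The 3 groups did not overlap, with the PBS arrays between the others. The rise against the control ASO was 0.56 (SE 0.10, adjusted p = 0.042). Against PBS the change was 0.20 (SE 0.10, adjusted p = 0.333), and the control ASO differed from PBS by −0.36 (SE 0.10, unadjusted p = 0.00357 in limma, adjusted p = 0.6). The rise was lost in 10 of 12 fits with 1 array left out, at adjusted p-values of up to 0.113. Lrrtm2 changed by −0.17 (adjusted p = 0.719) against PBS.

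**Figure D2:**
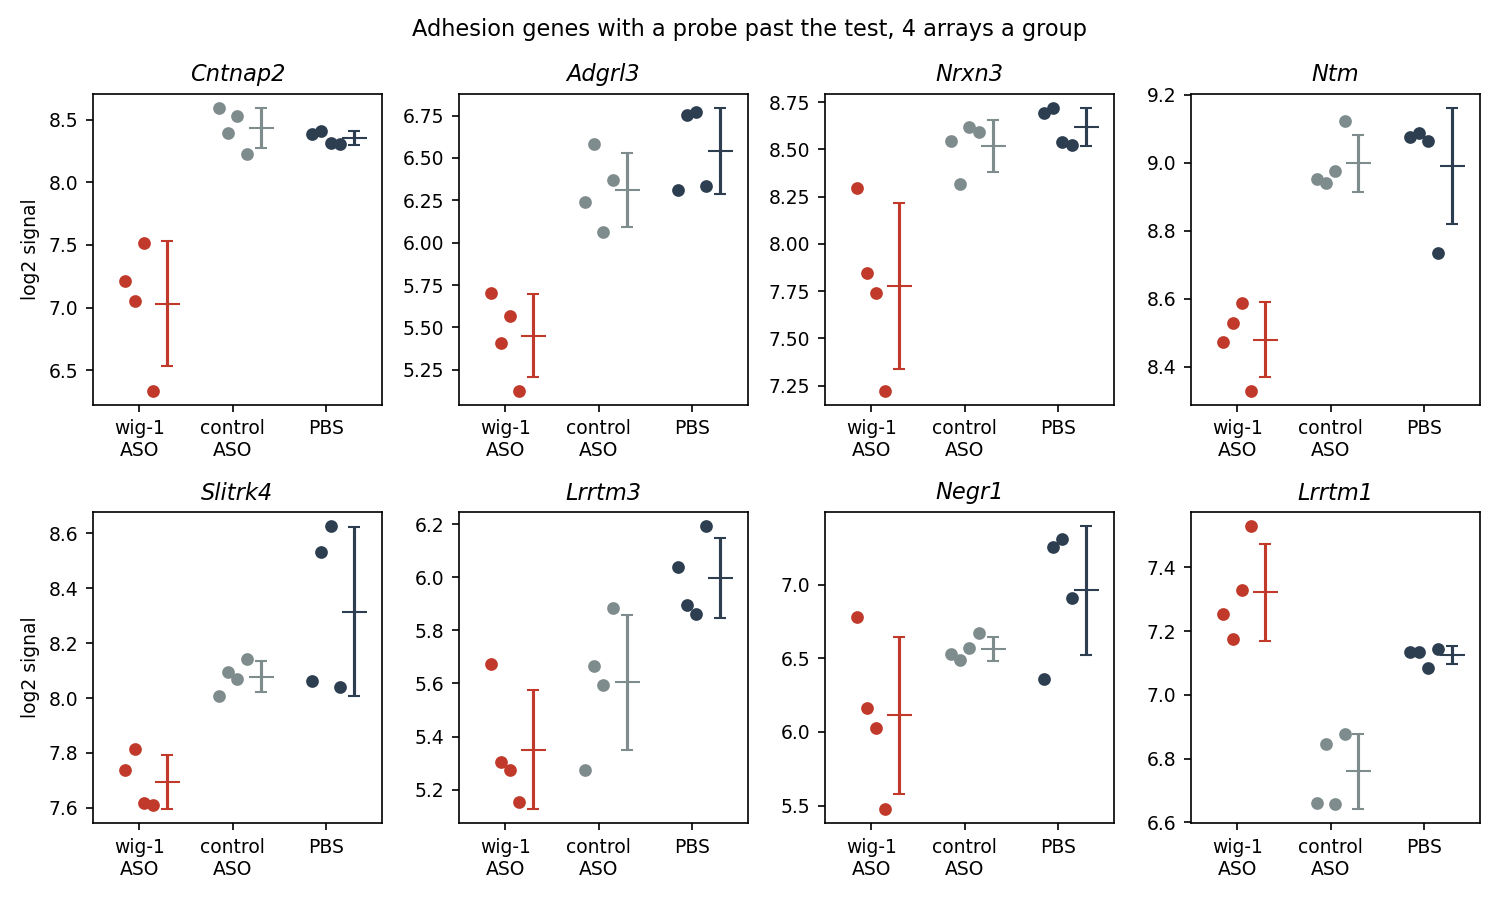
Log2 signal (y axis, own scale in each panel) of the 8 adhesion genes with a probe past the test, on each of 4 wig-1 ASO (red), 4 control ASO (grey) and 4 PBS (dark blue) arrays, with the mean and SD of each group beside its points; each gene is at its brightest probe, which for Negr1 did not pass. Cntnap2, Adgrl3 and Ntm show the wig-1 ASO arrays apart from both other groups, and Lrrtm1 is higher after the wig-1 ASO, at 7.17 to 7.53, than after the control ASO, at 6.66 to 6.88.

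Adgrl3 fell in both comparisons. It encodes latrophilin 3, a receptor whose partners FLRT and teneurin lie across the synapse. Its signal was 5.70, 5.41, 5.57 and 5.13 after the wig-1 ASO, 6.24, 6.58, 6.06 and 6.37 after the control ASO and 6.31, 6.75, 6.77 and 6.33 after PBS. No wig-1 ASO array reached the lowest array of another group. The change was −1.09 (SE 0.17, adjusted p = 0.00896) against PBS, a level of 46.9% of that after PBS, and −0.86 (SE 0.17, adjusted p = 0.0422) against the control ASO. Against PBS it passed in all 12 fits with 1 array left out, with adjusted p-values of 0.00338 to 0.0341, while against the control ASO it was lost in 11 of 12, at up to 0.124.

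The other latrophilins did not pass. Adgrl1, the latrophilin of highest signal, measured 8.91 to 9.19 after the wig-1 ASO, 9.03 to 9.28 after the control ASO and 9.09 to 9.27 after PBS, a change of −0.16 (95% interval −0.38 to 0.06, adjusted p = 0.448) against PBS. Adgrl4 carries the same name stem but is known from endothelial cells. It was 1 of the 2 members with a positive change against PBS, at 0.47 (SE 0.17, adjusted p = 0.178), the other being Lrrtm1. The endothelial marker list had a median change of 0.25, with 0 of 6 genes past the test in limma and 2 at an unadjusted p under 0.05. Of all 10031 genes, 828 were lower and 1051 higher at that unadjusted limit.

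The FLRT proteins, ligands of the latrophilins, gave no call in 3 genes. Flrt3, the brightest, measured 8.19 to 8.67 after the wig-1 ASO, 8.11 to 8.52 after the control ASO and 8.24 to 8.72 after PBS, with a change of −0.06 (adjusted p = 0.877) against PBS. Flrt1 measured 6.66 to 7.16, 7.17 to 7.40 and 7.20 to 7.42 in wig-1 ASO, control ASO and PBS striatum. The wig-1 ASO arrays lay below all others, while the control ASO and PBS arrays overlapped, and the change of −0.33 (SE 0.13, adjusted p = 0.19) against PBS did not pass. Flrt2 changed by −0.45 (adjusted p = 0.33).

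The SLITRK proteins, postsynaptic organisers with leucine-rich repeats, were lower in 4 of 4 genes against PBS, and 1 passed. Slitrk4 measured 7.74, 7.81, 7.62 and 7.61 after the wig-1 ASO, 8.01, 8.10, 8.07 and 8.14 after the control ASO and 8.06, 8.53, 8.63 and 8.04 after PBS. All wig-1 ASO arrays lay below all others, and 2 PBS arrays stood well above the rest. It fell by 0.62 (SE 0.14, adjusted p = 0.0342) against PBS, and changed by −0.38 (SE 0.14, adjusted p = 0.236) against the control ASO. The call was lost in 9 of 12 fits with 1 array left out, at adjusted p-values of up to 0.0993. Slitrk5, the brightest of the family, measured 9.41 to 9.64 after the wig-1 ASO, 9.68 to 9.83 after the control ASO and 9.65 to 10.01 after PBS. Again the wig-1 ASO arrays lay below all others and the control ASO and PBS arrays overlapped, and its change of −0.31 (SE 0.10, adjusted p = 0.127) did not pass. Slitrk1 changed by −0.42 (SE 0.13, adjusted p = 0.0984) and Slitrk3 by −0.10 (adjusted p = 0.874).

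Among the IgLON proteins, Ntm fell in both comparisons. Neurotrimin, its product, promotes neurite outgrowth and adhesion. Ntm measured 8.47, 8.53, 8.59 and 8.33 after the wig-1 ASO, 8.95, 8.94, 8.98 and 9.12 after the control ASO and 9.08, 9.09, 9.06 and 8.73 after PBS. The wig-1 ASO arrays were the lowest 4 of the 12, and PBS replicate 4 stood below the other PBS arrays. The change was −0.51 (SE 0.11, adjusted p = 0.028) against PBS and −0.52 (SE 0.11, adjusted p = 0.0498) against the control ASO, with levels of 70.2% and 69.8% of the group set against it. The call was lost in 6 of 12 fits with 1 array left out against PBS (adjusted p up to 0.0832) and in 10 of 12 against the control ASO (adjusted p up to 0.148).

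Negr1, an IgLON protein that regulates neurite growth, gave different calls at its 2 kept probes. The brighter probe measured 6.78, 6.16, 6.03 and 5.48 after the wig-1 ASO, 6.53, 6.49, 6.57 and 6.67 after the control ASO and 6.36, 7.25, 7.31 and 6.91 after PBS. Replicate 1 of each of the wig-1 ASO and PBS groups lay within the range of the other group, and the change was −0.85 (SE 0.26, adjusted p = 0.111). The dimmer probe measured 5.39, 5.03, 5.20 and 4.43 after the wig-1 ASO, 5.46, 5.31, 5.34 and 5.60 after the control ASO and 5.47, 6.39, 6.48 and 5.92 after PBS. It fell by 1.05 (SE 0.24, adjusted p = 0.039) against PBS and changed by −0.41 (adjusted p = 0.5) against the control ASO, and lost its call in 10 of 12 fits with 1 array left out (adjusted p up to 0.112). Lsamp changed by −0.14 (SE 0.19, adjusted p = 0.753) against PBS.

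The 4 numbered Lrrc genes gave no call. Lrrc40 had the largest change of them, −0.63 (SE 0.22, adjusted p = 0.153) against PBS, and the median of the 4 was −0.14.

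Several genes were read by more than 1 kept probe. At Adgrl3, 4 of 5 kept probes fell against PBS, with changes of −1.09, −1.32, −1.69 and −1.77 from the brightest to the dimmest of them, and the dimmest kept probe of the gene changed by −1.01 (SE 0.44, adjusted p = 0.261). The probes at −1.69 and −1.77 were each detected on 1 wig-1 ASO array and on all 8 others, so these values rest on signals near background. At Nrxn3, 3 of 4 kept probes fell against PBS, with changes of −0.84, −1.06 and −0.98. The fourth, dim Nrxn3 probe was detected on 1 wig-1 ASO, 0 control ASO and 3 PBS arrays and changed by −0.51 (adjusted p = 0.303) against PBS. The probes of 1 gene share the same arrays and are not independent replicates.

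The 2 kept probes of Cntnap2 gave unequal changes. The dimmer probe measured 6.69, 6.28, 6.77 and 6.68 after the wig-1 ASO, 6.70, 7.16, 7.01 and 6.70 after the control ASO and 6.81, 7.02, 6.95 and 6.53 after PBS. Its groups overlapped, and it changed by −0.22 (SE 0.16, adjusted p = 0.504) against PBS, where the brighter probe fell by 1.32. The change at the brighter probe minus that at the dimmer was −1.10 against PBS (SE 0.24, unadjusted p = 0.000703 in limma) and −1.12 against the control ASO (SE 0.24, unadjusted p = 0.000623). Over all 4895 such probe pairs on the array the adjusted p-values were 0.302 and 0.508, and 0 pairs (0% in each comparison) passed, with 5.68% and 4.13% of pairs at an unadjusted p under 0.05. Both probes are annotated to the same Cntnap2 transcript, and their positions on it were not analysed here, nor was it known from these files which of the annotated starts shown above either probe reads. With the mean of its kept probes in place of the brightest, Cntnap2 changed by −0.77 against PBS (adjusted p = 0.014) and still passed.

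There were 21 such probe pairs in 13 member genes. In wig-1 ASO against control ASO, the dim Nrxn3 probe differed from the brightest by −1.12 (SE 0.24, unadjusted p = 0.000534 in limma, adjusted p = 0.508). Dimmer Adgrl3 probes fell more than the brightest there, with differences of 0.54, 0.81 and 0.94 (unadjusted p = 0.0259, 0.0431 and 0.012 in limma, adjusted p = 0.997). The dimmest Adgrl3 probe differed the other way, by −0.29 (unadjusted p = 0.467). A Lrrc40 pair had an unadjusted p of 0.0276 in limma (adjusted p = 0.997).

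**Figure D3:**
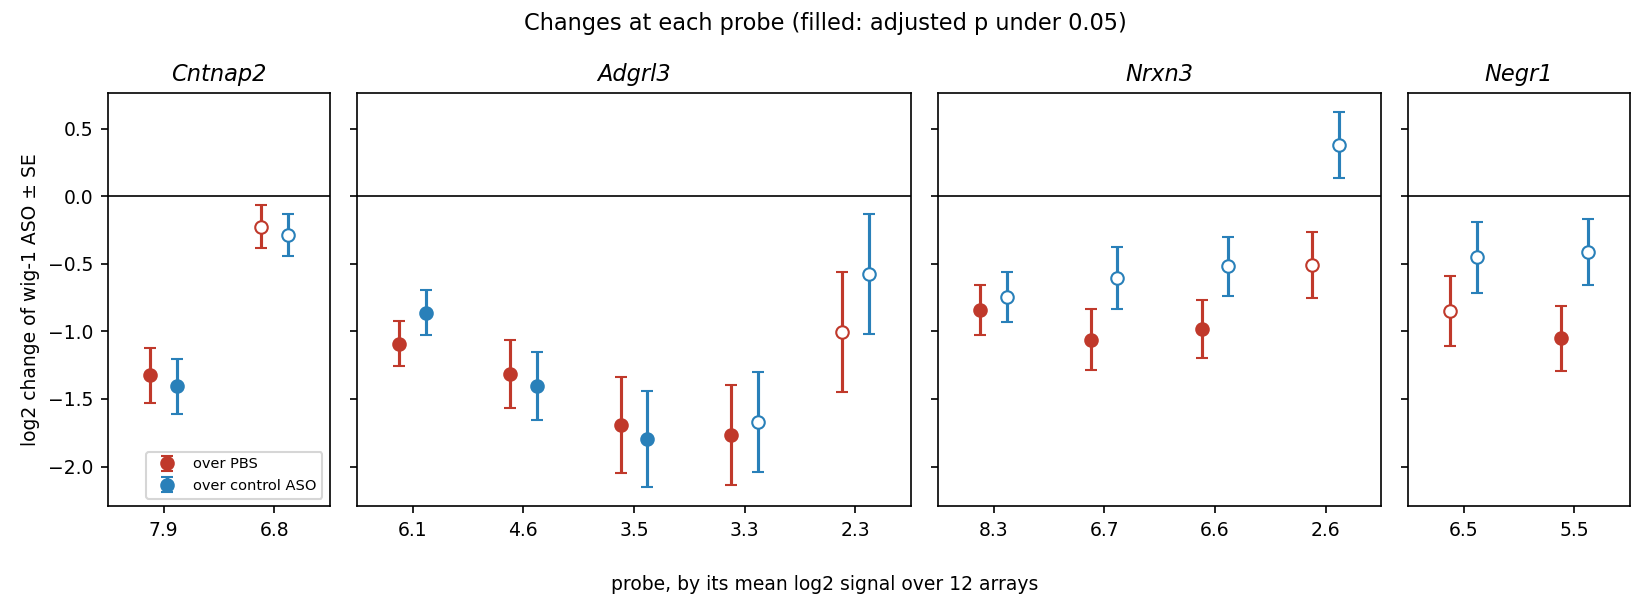
Change of the wig-1 ASO group (log2, y axis, bars of 1 SE) over PBS (red) and over control ASO (blue) at each kept probe of Cntnap2, Adgrl3, Nrxn3 and Negr1, ordered from the brightest probe to the dimmest and named by mean log2 signal; filled points passed at an adjusted p under 0.05. The Cntnap2 probes lie at −1.32 and −0.22 against PBS, while 4 Adgrl3 probes lie between −1.09 and −1.77.

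The arrays of the wig-1 ASO group differed among themselves. The median over the 32 genes of the difference from the PBS mean was −0.12, −0.41, −0.33 and −0.40 on replicates 1 to 4 of the wig-1 ASO, −0.03, −0.02, −0.15 and −0.11 on those of the control ASO and 0.04, −0.04, 0.14 and −0.06 on those of PBS. Replicate 1 was thus nearest to PBS. It was the highest of the wig-1 ASO arrays for 18 of the 32 genes, against 32.2% of all genes, and replicate 4 was the lowest for 17 of the 32, against 26.1% of all genes. Replicate 4 also had the lowest Zmat3 signal, 5.95, and replicate 1 the highest of the group, 6.89. Cntnap2 and Adgrl3 on replicate 1, at 7.22 and 5.70, were still below all control ASO and PBS arrays. Without wig-1 ASO replicate 1 the falls numbered 10 of 32 against PBS, with Cntn5, Lrrc40, Negr1 and Slitrk1 added. Cntn5 was detected on 1 wig-1 ASO array, so its call rests on signals near background, and Lrrc40 is a numbered Lrrc gene. The falls numbered 2 without wig-1 ASO replicate 2, 3 or 4 or without PBS replicate 2 or 3, and 3 without PBS replicate 1. The share of all genes called was not counted in these fits, so the numbers cannot be set against it. In those 12 fits, the median change of the members stayed between −0.35 and −0.28.

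Other genes of the same pathways were examined from 4 lists. Of the secreted and membrane partners of these molecules, 30 were measured and 3 fell against PBS. Lgi2, a secreted synaptic protein, fell by 0.45 (adjusted p = 0.0345), Il1rapl1, a postsynaptic ligand of receptor tyrosine phosphatases, fell by 0.93 (adjusted p = 0.0357) and Tenm2, a teneurin that binds latrophilins, fell by 0.64 (adjusted p = 0.0398). The list median was −0.28, with 23 of 30 genes lower. Of 17 other neuronal immunoglobulin adhesion genes 1 fell, Kirrel3, by 1.28 (adjusted p = 0.0202), with a median of −0.20. Of 20 cytoplasmic scaffolds 1 fell, Shank3, a core protein of the postsynaptic density, by 0.55 (adjusted p = 0.0292), with a median of −0.26. Of 12 genes of the node of Ranvier and its flank 1 fell, Kcnab1, a subunit of the potassium channels that Cntnap2 gathers, by 0.69 (adjusted p = 0.0484), with a median of −0.27. None rose in the 4 lists, and against the control ASO 0 of these genes passed in limma, with 9, 3, 5 and 3 of the 4 lists at an unadjusted p under 0.05. Of all 10031 genes, 647 were lower and 826 higher at that limit against the control ASO. The falls in each list stand against 0.977% of all genes.

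Markers of cell types moved between the groups as well. Medium spiny neuron markers were lower in 15 of 15 measured genes after the wig-1 ASO than after PBS, with a median of −0.58, 0 past the test in limma and 11 at an unadjusted p under 0.05. Of all 10031 genes, 828 were lower and 1051 higher at that limit. The dopamine receptors Drd1 and Drd2 gave changes of −0.62 (adjusted p = 0.17) and −0.73 (adjusted p = 0.104). After the control ASO, 14 of the 15 were lower than after PBS, with a median of −0.37. The summed signal of the list was 10503 to 18768 after the wig-1 ASO, 12545 to 16804 after the control ASO and 16836 to 20883 after PBS. The mean log2 value of the list, as a difference from PBS, was 0.04, −0.97, −0.77 and −0.57 on the wig-1 ASO arrays and −0.58, −0.18, −0.44 and −0.07 on the control ASO arrays. On wig-1 ASO replicate 1, at 0.04, all 6 genes that fell against PBS were below every PBS array. These genes were picked by a fit that includes this array, so that outcome was largely set by the choice. On control ASO replicate 1, at −0.58, Adgrl3 (6.24), Slitrk4 (8.01) and Lrrtm3 (5.27) were below every PBS array, Nrxn3 (8.55) and Ntm (8.95) were within the PBS range, and Cntnap2 (8.59) was above it. These are single arrays. Over the 12 arrays the 6 genes correlated with the medium spiny neuron list mean at 0.417 (Ntm) to 0.885 (Lrrtm3). With the microglia list mean they correlated at −0.784 (Slitrk4) to −0.934 (Adgrl3), and with Zmat3 at 0.689 (Lrrtm3) to 0.979 (Cntnap2). These correlations pool the 3 treatment groups, so differences between the groups enter each of them. The relation of the 6 genes to these markers was not tested. The pan-neuronal list had a median of −0.06 against PBS with 0 of 8 genes past the test in limma and 2 at an unadjusted p under 0.05, and its mean on the wig-1 ASO arrays lay between −0.15 and −0.02.

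Of the striatal interneuron markers 1 of 8 fell, Chat, by 0.80 (adjusted p = 0.0489). Of 8 microglia markers 5 rose against PBS (Aif1, Tmem119, Tyrobp, Trem2 and C1qa), with a list mean of 0.69, 1.54, 1.20 and 1.43 on the wig-1 ASO arrays, −0.08 to 0.56 on the control ASO arrays and −0.11 to 0.07 on PBS arrays. Gfap rose among 10 astrocyte markers and Gpr17 among 5 oligodendrocyte precursor markers. Over all genes, 0.977% fell and 2.83% rose against PBS. Against the control ASO 2 of the 8 microglia markers rose, as did Gfap, where 0.788% of all genes rose, while Chat and Gpr17 did not pass. No gene passed against PBS in limma among 8 oligodendrocyte, 6 endothelial, 6 cortical neuron, 12 thalamus, hypothalamus and septum and 7 choroid plexus markers, with 1, 2, 0, 4 and 0 at an unadjusted p under 0.05. The choroid plexus mean ran from −1.67 to 2.34 within the wig-1 ASO group. The summed microglia signal was 1564 to 2844 after the wig-1 ASO, 987.0 to 1453 after the control ASO and 1032 to 1112 after PBS. The part of these marker changes in the change of the adhesion genes was not tested.

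**Figure D4:**
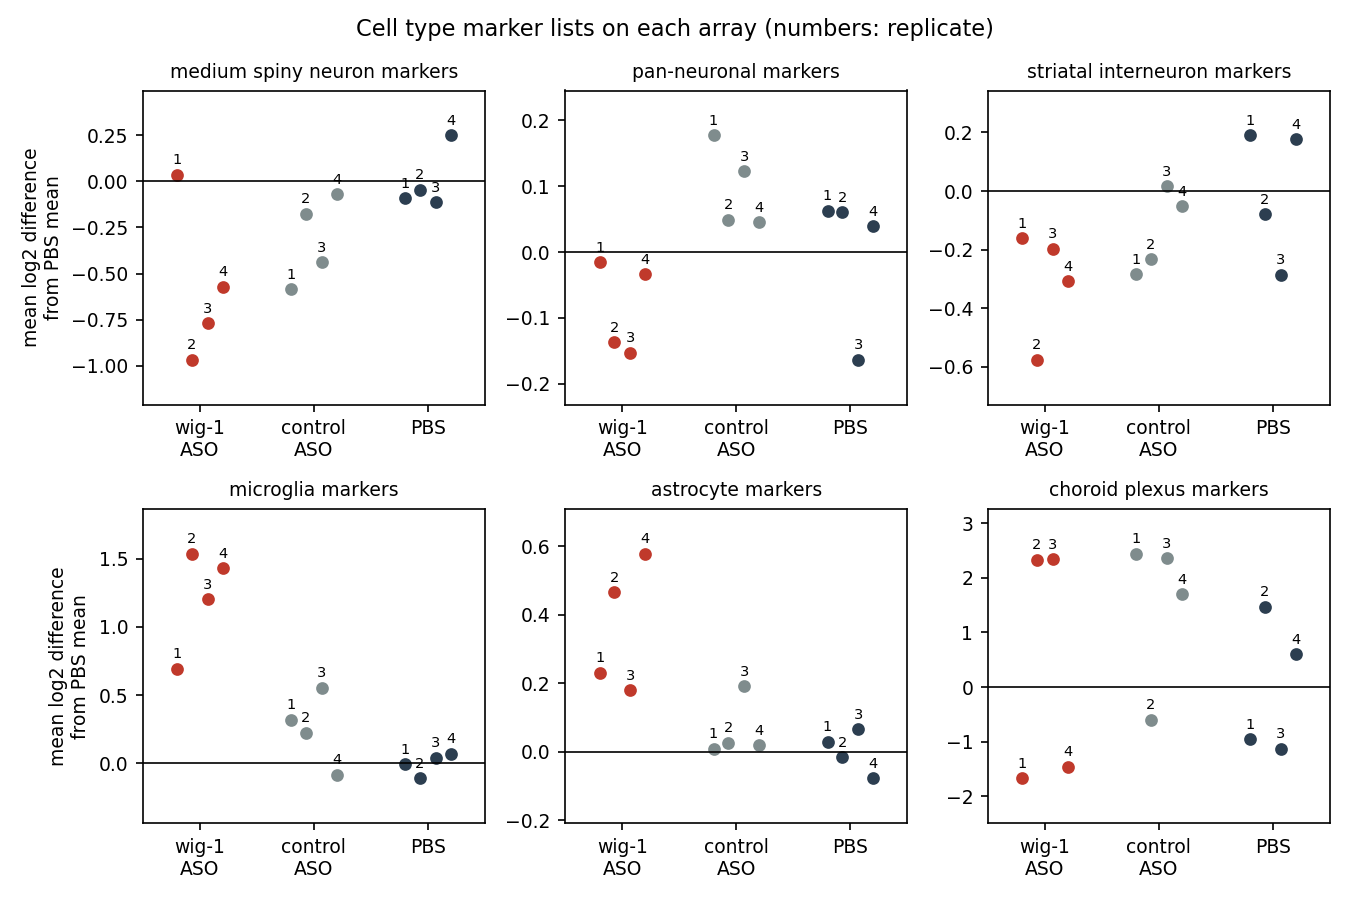
Mean log2 difference from the PBS mean (y axis, own scale in each panel) of 6 cell type marker lists on each of 4 wig-1 ASO (red), 4 control ASO (grey) and 4 PBS (dark blue) arrays, with the replicate number above each point. Microglia markers are higher on all wig-1 ASO arrays, and medium spiny neuron markers are lower on wig-1 ASO replicates 2, 3 and 4 but not on replicate 1, at 0.04.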

How the data were processed

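Striatal RNA of 12 BACHD mice was hybridised to Illumina MouseWG-6 v2 arrays. For each probe and array the authors deposited an intensity on a linear scale with its detection p-value, and a table of log2 values. They name lumi and siggenes, and versions and background steps are not given in the sources used here. The deposited intensities have the same sorted values on all 12 arrays, as quantile normalization leaves, running between 2 and 14145 around a median signal of 2.903, and the deposited log2 values equal their log2 within 5.6e-09. They were used on the log2 scale with no further normalization. The number of arrays limits the precision.

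Symbols came from the platform annotation (34885 probes with 1 symbol, 18 with several, 10378 with none). All 47 member gene IDs were in the RefSeq gene table, which changed 0 symbols. The 3 groups were fitted in 1 limma model (version 3.58.1, R 4.3.3), with 9 residual degrees of freedom and Benjamini-Hochberg adjustment over kept probes. For single genes, all 70 arrangements of 4 against 4 arrays gave an exact two-sided permutation p. SAM was rebuilt with a q-value limit of 0.1. Both tests were also run on simulated data with independent normal noise for each probe, and the outcome is not given here. Labels give a replicate number and a letter code. The paper's figure of wig-1 and huntingtin protein uses such codes for single animals. The p-values measure the spread between these arrays.

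Named are members with a probe past the test, the brightest member and the member of smallest p against PBS in each family, and list genes past the test. Others were named for completeness after their values were seen. Members and lists were chosen with earlier results of these data known. Pathway lists cover partners, other immunoglobulin adhesion genes, scaffolds and the node of Ranvier. Marker lists cover microglia, astrocytes, oligodendrocytes and their precursors, endothelial cells, choroid plexus, pan-neuronal genes, medium spiny neurons, interneurons, cortical neurons, and thalamus, hypothalamus and septum. Promoters are from RefSeq (GRCm38.p6). Alternatives changed the detection filter, normalization, offset, fit, test, probe choice, members and arrays.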

Additional observations from a re-analysis of the deposited data

Results flagged for a closer look

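In 3 of 69 groups of 4 arrays tested, over 23 probes of the named genes, 1 array lay far from the other 3, where chance gives about 1 in 20. Ntm on PBS replicate 4 was 8.73, with the next PBS array at 9.06, a gap of 0.938 of the group's range. Adgrl1 on control ASO replicate 1 was 9.28, with the next array at 9.07, a gap of 0.834 of the range. A dim Adgrl3 probe on control ASO replicate 3 was 4.42, with the next array at 3.69, a gap of 0.903 of the range.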

How the results depend on the processing

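Many calls were lost when the processing changed. Only called genes and probes were followed. Settings such as the detection filter or the test leave the log2 change itself as it was, so no reversal could arise in them. Over 457 pairs of a called gene or probe and a setting, 265 kept the call, 192 lost it and 0 reversed. The 6 calls against PBS became 2 with no filter on dim probes, 1 with only the compared groups in the fit (14 genes at an unadjusted p under 0.05) and 12 with every kept probe counted singly. The remaining gene in the fit of 2 groups was Adgrl3 (adjusted p = 0.0419), and Cntnap2 then had an adjusted p of 0.0500245. The 4 calls against the control ASO became 1 with no filter, 1 with detection on at least 1 array, 0 with only the compared groups (9 genes at an unadjusted p under 0.05), 1 by SAM and 2 under the study's limits. With no filter the median change against PBS was −0.16. With 1 array left out, 2 to 10 genes passed against PBS, and the share of all genes called was not counted in these fits. Against the control ASO it was 0 to 7, with 7 without wig-1 ASO replicate 1, 1 in 6 fits (omitting control ASO replicate 3, replicate 3 or 4 of the wig-1 ASO, or any of PBS replicates 1, 2 and 3) and 0 in 4 fits (without wig-1 ASO replicate 2 or control ASO replicate 1, 2 or 4, with 8 to 9 genes at an unadjusted p under 0.05). The 7 include Cntn5, detected on 1 wig-1 ASO array, and the numbered gene Lrrc40. Counts of the control ASO against PBS were 0 in every setting. There were 1 to 3 genes at an unadjusted p under 0.05 when 1 array was left out. Medians changed by less than 1 SD in all other settings run.

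Arrays of the same replicate number did not deviate together, with correlations of −0.135 to 0.126, against −0.199 to 0.249 for other numbers. No pairing by number was seen, but so few arrays could miss a shared step of handling, so the question is not settled. A fit with the replicate block gave 2 calls against PBS, 1 against the control ASO and 0 for the control ASO against PBS (2 at an unadjusted p under 0.05), with medians of −0.32, −0.26 and −0.08.

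Signals near background limit Cntn5, Nlgn1, Cntnap1 and the dim Adgrl3 and Nrxn3 probes, and quantile normalization by the authors means that a shift of all genes could not be seen.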
